A study of Mus musculus with 18 samples.

Results

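The comparison set mouse embryonic fibroblasts (MEFs) on day 8 of reprogramming with a low-KLF4 cassette, 2 arrays, against the 2 induced pluripotent stem cell (iPSC) clones made with the same cassette, A7 and A9. These 4 arrays were chosen by their titles from the 18 of the series, and no measured value entered the choice. The day 8 cells came from ROSA-rtTA; Nanog-GFP MEFs, which express the transactivator that responds to doxycycline and report Nanog with GFP. A piggyBac transposon with the OKMS cassette (Oct4, Klf4, c-Myc and Sox2, the short Klf4 cDNA, called low-KLF4) and an mCherry reporter was delivered by transfection, doxycycline was given at 1 µg/mL, and mCherry+ cells were sorted on day 8. Clones A7 and A9 were derived with the same OKMS vector and grown in ES cell medium, and neither a sort nor doxycycline is stated for them, so that reprogramming stage, sorting and drug cannot be told apart in this comparison. Each clone is a single line. The other arrays were used for the spread and for levels: the same cells on days 2, 4 and 18 (1 array for each day), MEFs with the OK+9MS cassette (the long Klf4 cDNA, called high-KLF4) on the same days with 2 arrays on day 8, their clones A10 and H10, 2 arrays of 1A2 mESCs and 2 of primary keratinocytes from newborn pups. The question was which transcripts still separate a cell population midway through reprogramming from the pluripotent lines that the same cassette yields.

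Pluripotent stem cells keep themselves undifferentiated through a network of transcription factors around Oct4, Sox2 and Nanog, and they also express many genes otherwise limited to early embryos and the germline. MEFs lack this network and instead express matrix, motility and immune-signalling genes of connective tissue. In reprogramming, the cassette supplies the factors from the start, a mesenchymal-to-epithelial transition is an early step, and the network at the cell's own loci comes late.

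Expression was measured on Affymetrix Mouse Gene 1.0 ST arrays, which report 1 signal per transcript cluster in arbitrary units after RMA normalization. Differences are log2 of the signal on day 8 minus log2 of the signal in the clones, and a gene counts as changed where the Benjamini-Hochberg adjusted p of a limma fit over all 18 arrays was below 0.05. The signals of all arrays lay between 20.2 and 19538.7, and no level of absence is given with them. The 2 day 8 arrays come from independent experiments according to the methods, and how the clone cultures were replicated is not stated beyond the 2 lines. Of 21789 probes that name a single gene, 1886 were higher on day 8 (8.66%) and 2343 were lower (10.8%), and the median difference over all probes was 0.07. The falls were the larger changes: 64 probes were at least 10-fold lower on day 8 and 14 were at least 10-fold higher.

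The spread was not equal between the groups. The SD between the 2 arrays was 0.35 on the log2 scale for the day 8 cells and 0.12 for the clones, and 1216 probes differed by at least 2-fold between the day 8 arrays against 6 between A7 and A9. The fit pools this spread over groups, which understates the error of the day 8 mean. When each array was weighted by the spread of its own group, an alternative added after the data were seen, 838 probes were higher and 1178 lower. On both day 8 arrays, 379 probes lay at least 2-fold above the mean of the clones and 649 at least 2-fold below it, while 643 were above it on array 1 alone and 404 on array 2 alone. The values of both day 8 arrays are therefore given below, array 1 first, and those of A7 before A9.

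The pluripotency network separated the groups most clearly. Of its 36 measured genes, 31 were lower on day 8 and 1 was higher, beside 10.8% and 8.66% of all probes, and the median difference was -2.47, with -2.69 on array 1 and -2.38 on array 2. These arrays measure RNA of whole populations, so fewer expressing cells and less RNA per cell cannot be told apart. Dppa5a, a KH-domain RNA-binding protein of pluripotent cells, had signals of 83.6 and 89.4 on day 8, against 8050 and 8056 in the clones, a difference of -6.54 ± 0.14 (SE, adjusted p = 1.59e-07). The day 8 signals were near those of keratinocytes, at 58.9 and 72.8. Sox2, a core factor that the cassette also encodes, had 123 and 95.4 on day 8, against 4368 and 4931 in the clones (-5.42 ± 0.21, adjusted p = 2.28e-06). The Sox2 difference is that of the probe's signal, and whether the probe reads the cassette transcript was not tested. Lefty1, a Nodal antagonist and Nodal target, had 147 and 112 on day 8, against 2875 and 3076 in the clones (-4.53 ± 0.14, adjusted p = 7.60e-07). In each of these genes the groups were far apart and the 2 arrays of a group close together.

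Not every member of the network was at the level of a differentiated cell. Nanog had 2565 and 2464 on day 8, against 5975 and 6755 in the clones, a difference of only -1.34 ± 0.10 (adjusted p = 9.13e-05), while keratinocytes had 70.8 and 66.5. The MEFs carry a Nanog-GFP transgene, and whether it adds to this signal was not tested. Utf1, a chromatin-associated cofactor of embryonic stem cells, had 1389 and 1557 on day 8, against 8815 and 8993 in the clones (-2.60 ± 0.17). Tdgf1, the Nodal co-receptor Cripto, had 579 and 473 on day 8, against 8924 and 8712 in the clones (-4.07 ± 0.21), and keratinocytes had 66.2 and 65.0. These genes were thus above the keratinocyte level on day 8 and below the clones. Nr0b1, an orphan nuclear receptor of the network, had 2658 and 2785 on day 8, against 3194 and 3885 in the clones, a difference of -0.37 ± 0.15 that did not pass the test (adjusted p = 0.116). L1td1, Trim71 and Eras did not pass it either, at 0.14, -0.86 and -0.94. Fbxo15, a target gene of Oct4 and Sox2, had 78.3 on array 1 and 300 on array 2, against 1490 and 1693 in the clones (-3.37 ± 0.48). Tfcp2l1, a factor of naive cells, had 143 and 315 on day 8, against 2055 and 2335 in the clones (-3.36 ± 0.45). Both differed more than 2-fold between the day 8 arrays and stayed below the clones on each. Nanog, Utf1, Tdgf1, Nr0b1, Fbxo15 and Tfcp2l1 were picked for description after their values were seen.

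The cassette factors did not move together. Pou5f1, which encodes Oct4, was the only network gene called higher, with 9341 and 10378 on day 8, against 4345 and 4388 in the clones (1.17 ± 0.16, adjusted p = 0.0019). Myc had 3550 and 3319 on day 8, against 834 and 759 in the clones (2.11 ± 0.20, adjusted p = 3.13e-04). Klf4 had 1038 and 974 on day 8, against 869 in A7 and 518 in A9, which did not pass the test (0.58 ± 0.21, adjusted p = 0.0891). The clones differed more from each other in Klf4 than the day 8 arrays did. Where the probes lie relative to the cassette's coding sequences is not given in the sources used here. Probe position therefore does not tell cassette from chromosomal transcripts for Pou5f1, Myc, Klf4 and Sox2. On low-KLF4 day 2, Pou5f1 already had 9348, beside 73.6 and 64.3 in keratinocytes. Sox2 had 129 on that day, beside 62.1 and 59.8 in keratinocytes. Which transcripts give these signals was not tested. Mycn, the MYC family member of embryonic cells that the cassette does not carry, went the other way, with 229 and 298 on day 8, against 2689 and 3123 in the clones (-3.47 ± 0.16).

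**Figure D1:**
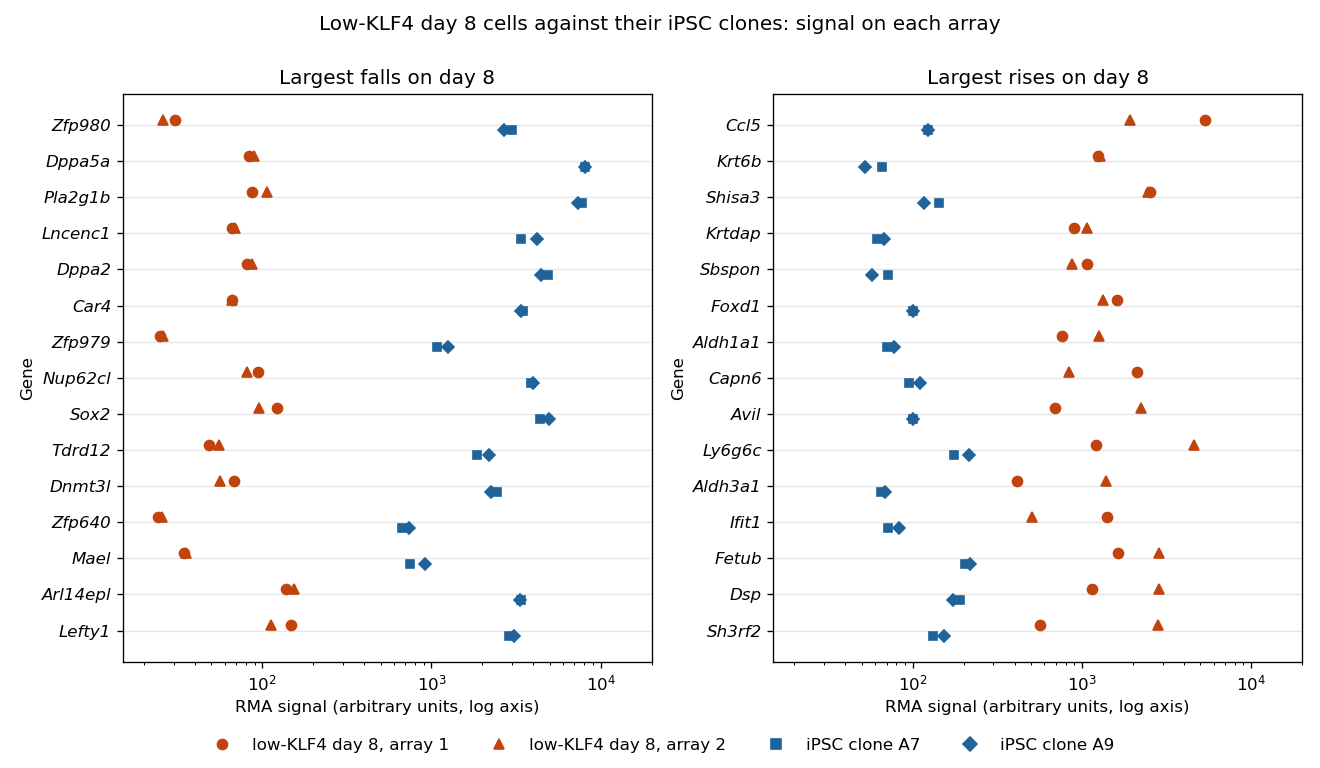
RMA signal (arbitrary units, log axis) of the 15 largest falls (left) and 15 largest rises (right) on each of the 2 low-KLF4 day 8 arrays and in clones A7 and A9. The clones sit close together in all 30 genes, while several rises, such as Sh3rf2 (566 and 2802) and Ccl5 (5330 and 1937), differ severalfold between the day 8 arrays.

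MicroRNA genes of the miR-302 cluster were also lower on day 8. miR-302 is abundant in pluripotent cells and targets transcripts through its seed, bases 2 to 8 of the mature strand. Of the mature strands that RefSeq lists for these genes on GRCm38.p6, the 3p strands and the 5p strand of miR-302a are shown. The family is recognised by its seed, in capitals.
miR-302b-3p (chr3:127545275-127545297, plus strand): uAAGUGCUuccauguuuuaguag
miR-302d-3p (chr3:127545665-127545687, plus strand): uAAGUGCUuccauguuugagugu
miR-302c-3p (chr3:127545406-127545427, plus strand): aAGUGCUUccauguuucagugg
miR-302a-5p (chr3:127545501-127545522, plus strand): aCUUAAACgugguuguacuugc
The 3p strands of miR-302b and miR-302d share the seed AAGUGCU. The listed miR-302c-3p starts 1 base later, so its bases 2 to 8 read AGUGCUU within the same run. The 5p strand of miR-302a has a different seed, CUUAAAC, and those of miR-302b, miR-302c and miR-302d, not shown, share CUUUAAC. The Mir302b probe gave 23.3 and 26.6 on day 8, against 51.7 and 62.6 in the clones (-1.20 ± 0.22, adjusted p = 0.0075). Mir302d gave 29.5 and 28.8 on day 8, against 44.3 and 47.6 in the clones (-0.65 ± 0.09, adjusted p = 0.0014). Mir302c (-0.75) and Mir302a (-0.47) were lower too. Of 21 measured microRNA genes, these 4 were lower (19%, beside 10.8% of all probes) and 0 were higher (beside 8.66%). The other 17, Mir367 among them (-0.13), did not pass the test. The day 8 signals are close to the lowest value of the table, and the calls of Mir302a, Mir302b and Mir302c were lost when arrays were weighted by the spread of their group. In mESCs the Mir302b probe gave 24.8 and 24.2, no higher than on day 8, and in low-KLF4 cells on day 18 it gave 72.6.

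Some of the largest falls lie beside other genes that fell. Dppa2, a SAP-domain DNA-binding protein of pluripotent cells at chr16:48310274-48319513 (GRCm38.p6, RefSeq), had 81.4 and 87.0 on day 8, against 4907 and 4459 in the clones (-5.80 ± 0.12, adjusted p = 1.59e-07). Its partner Dppa4, at chr16:48283735-48294292, had 90.2 and 79.8 on day 8, against 901 and 916 in the clones (-3.42 ± 0.16). Morc1, a germline gene on the other side of Dppa2, had 51.7 and 52.6 on day 8, against 503 and 674 in the clones (-3.48 ± 0.17). Next to Dppa5a on chromosome 9, Ooep, an oocyte protein of the same KH-domain family, had 147 and 142 on day 8, against 2667 and 2832 in the clones (-4.25 ± 0.11), and Ddx43, a germ-cell RNA helicase, differed by -2.40 ± 0.16. Lefty2 lies next to Lefty1 and differed by -3.53 ± 0.21. Within 200 kb of the 14 falls with a known position lay 76 other measured genes, of which 22 were lower on day 8 (28.9%, beside 10.8% of all probes) and 7 higher (9.21%, beside 8.66%). Around the 15 largest rises there were 145 such genes, 12 lower (8.28%) and 21 higher (14.5%). These neighbours were picked by position after the falls and rises were known.

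Zinc-finger genes were among the largest falls. Zfp980 had the largest fall of all, with 30.4 and 26.0 on day 8, against 2989 and 2693 in the clones (-6.66 ± 0.16, adjusted p = 2.04e-07), which is 101-fold. It lies at chr4:145670697-145704437. Zfp979, further along the same chromosome (chr4:147611936-147642508), had 24.8 and 25.8 on day 8, against 1081 and 1255 in the clones (-5.53 ± 0.14). Its neighbours Zfp985 (-1.27 ± 0.22) and Zfp982 (-1.61 ± 0.28) were lower as well, and Zfp640 had 24.3 and 25.7 on day 8, against 669 and 733 in the clones (-4.81 ± 0.15). Genes of this family share long stretches of sequence, so a probe may read more than 1 of them. All 3 of Zfp980, Zfp979 and Zfp640 were near the floor of the table on both day 8 arrays.

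The remaining large falls had no common role. Pla2g1b, a secreted phospholipase A2, had 86.6 and 106 on day 8, against 7811 and 7395 in the clones (-6.31 ± 0.14, adjusted p = 1.60e-07), a 79.2-fold difference. Car4, a membrane-bound carbonic anhydrase, had 65.8 and 66.1 on day 8, against 3477 and 3394 in the clones (-5.70 ± 0.24), and the mESCs had 853 and 493. Lncenc1, a long non-coding RNA of naive embryonic stem cells, had 66.3 and 69.3 on day 8, against 3393 and 4201 in the clones (-5.80 ± 0.11). The signal of Car4 was thus higher in the clones than in mESCs, a comparison that was not tested, while mESCs had 5829 and 4384 for Pla2g1b and 4882 and 4675 for Lncenc1. Nup62cl (-5.49) and Arl14epl (-4.53) completed the largest falls.

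Genes of the germline and of the piRNA pathway, which silences transposons in germ cells, were lower or not called. Of 39 measured genes, 22 were lower on day 8 (56.4%, beside 10.8% of all probes) and 0 were higher, with a median of -0.71. Tdrd12, a Tudor-domain protein of piRNA production, had 48.2 and 55.4 on day 8, against 1847 and 2196 in the clones (-5.28 ± 0.16, adjusted p = 6.51e-07). Mael, which works in the same pathway, had 34.3 and 35.3 on day 8, against 751 and 922 in the clones (-4.58 ± 0.14, adjusted p = 7.60e-07). Sycp3, a protein of the axis of meiotic chromosomes, had 27.7 and 28.1 on day 8, against 317 in A7 and 636 in A9 (-4.01 ± 0.34, adjusted p = 1.52e-04). Rnf17, a further Tudor-domain protein, differed by -3.40 ± 0.16. The day 8 signals of these 4 genes ran between 27.7 and 55.4, beside 27.9 to 51.6 in keratinocytes, and Sycp3 differed about 2-fold between the clones. The genes not called included Tdrd1, Tdrd9, Piwil1 and Piwil4, the last 2 encoding PIWI proteins, with differences between -0.23 and 0.18.

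Promoters of germline genes often hold an E-box bound by MYC-type and MGA-type factors and a site of the E2F6 type, and in somatic cells these genes are repressed in part by DNA methylation. Promoter windows from 250 bases before to 50 bases after the RefSeq start were searched for CACGTG and for TCCCGC on both strands. Over all 32851 windows of this length, 7.15% held CACGTG and 20.0% held TCCCGC. Counted by gene, as for the list below, the shares were 8.09% and 22.0% of 27025 genes. Of the 22 lower germline genes, 20 had a window, of which 11 held CACGTG and 13 held TCCCGC. Of the 17 that were not called, 14 had a window, of which 4 held CACGTG and 0 held TCCCGC. The windows of Tdrd12, the largest fall of the list, held neither motif, as did those of the lower genes Dazl, Syce1 and Tdrkh. The windows of Mael, Ddx4 and Sycp3 are shown because each holds both motifs, which are in capitals.
Mael (chr1:166238695-166238994, minus strand): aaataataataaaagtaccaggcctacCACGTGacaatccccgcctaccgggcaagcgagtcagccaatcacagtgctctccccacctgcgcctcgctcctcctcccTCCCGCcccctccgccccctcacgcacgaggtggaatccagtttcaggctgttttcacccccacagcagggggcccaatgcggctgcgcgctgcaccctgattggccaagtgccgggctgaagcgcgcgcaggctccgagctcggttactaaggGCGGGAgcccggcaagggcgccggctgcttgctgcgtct
Ddx4 (chr13:112652261-112652560, minus strand): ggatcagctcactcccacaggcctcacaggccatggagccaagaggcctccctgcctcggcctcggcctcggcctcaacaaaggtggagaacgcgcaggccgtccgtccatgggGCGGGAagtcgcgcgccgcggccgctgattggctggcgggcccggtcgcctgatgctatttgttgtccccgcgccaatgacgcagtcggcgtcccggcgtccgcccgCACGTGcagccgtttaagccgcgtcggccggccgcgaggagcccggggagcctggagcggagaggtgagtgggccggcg
Sycp3 (chr10:88459337-88459636, plus strand): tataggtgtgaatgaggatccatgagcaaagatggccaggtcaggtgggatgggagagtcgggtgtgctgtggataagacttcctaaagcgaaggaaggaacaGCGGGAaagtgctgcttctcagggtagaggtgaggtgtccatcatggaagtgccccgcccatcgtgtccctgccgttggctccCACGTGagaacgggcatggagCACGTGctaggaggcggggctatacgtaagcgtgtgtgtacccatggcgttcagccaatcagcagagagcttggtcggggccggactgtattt
The Mael window holds 1 CACGTG, 2 TCCCGC and 24 CG pairs, that of Ddx4 1, 1 and 38, and that of Sycp3 2, 1 and 15. Ddx4, the germ-cell helicase VASA, had 47.4 and 50.4 on day 8, against 392 and 396 in the clones (-3.01 ± 0.11). A match describes the letters of the window and not binding, and methylation was not measured.

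Of 17 measured genes of the DNA methylation machinery, 7 were lower on day 8 (41.2%, beside 10.8% of all probes), with a median of -0.47, and 2 were higher (11.8%), near the 8.66% of all probes. Dnmt3l, the cofactor of de novo methylation in germ cells and embryonic stem cells, had 68.0 and 56.3 on day 8, against 2427 and 2251 in the clones (-5.24 ± 0.18, adjusted p = 9.68e-07). Dnmt3b, a de novo methyltransferase, had 190 and 249 on day 8, against 1840 and 1553 in the clones (-2.96 ± 0.20), and Zfp57, which keeps methylation at imprinted loci, had 2036 and 2406 on day 8, against 5592 and 6265 in the clones (-1.42 ± 0.14). The maintenance genes Dnmt1 (0.15) and Uhrf1 (-0.17) did not pass the test. The TET enzymes, which oxidise methylcytosine, went opposite ways. Tet1 had 530 on array 1 and 1726 on array 2, against 5343 and 5654 in the clones (-2.52 ± 0.45, adjusted p = 0.0063), while Tet3 had 503 and 896 on day 8, against 167 and 176 in the clones (1.97 ± 0.33, adjusted p = 0.0047). Mbd2, a reader of methylated DNA, differed by 0.94 ± 0.09. The Tet1 call was lost without A9 and in a fit of the 4 arrays alone, and the direction held on both day 8 arrays.

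**Figure D2:**
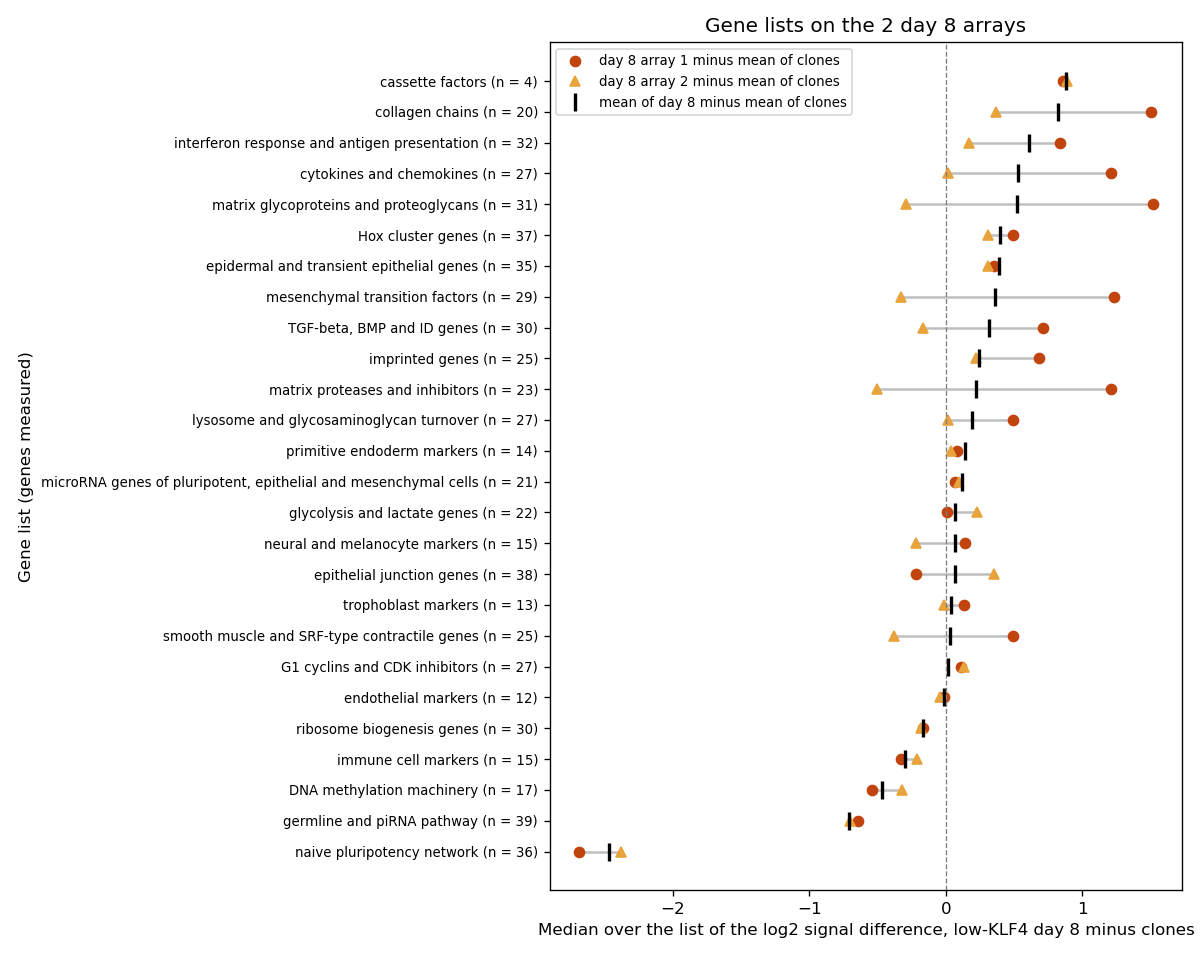
Median over each of 26 gene lists of the log2 signal difference from the mean of clones A7 and A9, for day 8 array 1 (circles), day 8 array 2 (triangles) and the mean of both (vertical ticks). The pluripotency list lies at -2.69 and -2.38, while the matrix and mesenchymal lists lie above 0 on array 1 and at or below 0.37 on array 2.

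Epidermal genes were among the largest rises, although the cells came from fibroblasts. Of 35 measured epidermal and transient epithelial genes, 12 were higher on day 8 (34.3%, beside 8.66% of all probes) and 1 was lower (2.86%, beside 10.8%), with a median of 0.39. Krt6b, a keratin of stressed and proliferating epidermis, had 1244 and 1272 on day 8, against 65.5 and 51.9 in the clones, a 21.6-fold difference (4.43 ± 0.21, adjusted p = 5.68e-06). Krtdap, a secreted protein of differentiating keratinocytes, had 896 and 1068 on day 8, against 61.7 and 67.2 in the clones (3.93 ± 0.22, adjusted p = 1.75e-05). Both genes agreed closely between the day 8 arrays and did not overlap with the clones. Itgb4, the integrin chain of hemidesmosomes, had 1301 and 2435 on day 8, against 219 and 229 in the clones (2.99 ± 0.28). Ehf, an epithelial ETS factor, had 577 and 539 on day 8, against 65.3 and 82.4 in the clones (2.93 ± 0.21), and Krt17, another stress keratin, had 1833 and 1084 on day 8, against 320 and 314 in the clones (2.15 ± 0.22). Itga6, the partner chain of Itgb4, was the exception: it had 781 and 1183 on day 8, against 2226 and 2548 in the clones (-1.31 ± 0.23, adjusted p = 0.0055), a call that was lost without A9. The cornified-envelope genes Lor (0.21) and Ivl (0.00) and the kallikreins Klk10 (-0.28) and Klk14 (0.10) did not pass the test. Krt5, the keratin of basal epidermis, had 183 and 159 on day 8, against 103 and 93.3 in the clones (0.80 ± 0.14), a call on a low signal beside the 12142 and 11903 of keratinocytes.

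Of 38 measured junction genes, 5 were higher (13.2%, beside 8.66% of all probes), 2 lower (5.26%, beside 10.8%) and 31 not called, with a median of 0.07. Dsp, the desmosomal plaque protein desmoplakin, had 1155 and 2857 on day 8, against 189 and 174 in the clones (3.32 ± 0.45, adjusted p = 0.0016). Krt19 had 1530 and 1674 on day 8, against 229 and 225 in the clones (2.82 ± 0.12, adjusted p = 3.31e-06), and Krt8 had 3531 and 5440 on day 8, against 703 and 802 in the clones (2.55 ± 0.21). Both are keratins of simple epithelia. Perp, a desmosomal membrane protein, was higher by 2.00 ± 0.30, and Dsc2, a desmosomal cadherin, by 1.95. Epcam, an adhesion molecule that stays on in pluripotent cells, was lower, with 1158 and 1235 on day 8, against 2263 and 2337 in the clones (-0.94 ± 0.15, adjusted p = 0.0033). Cdh1, E-cadherin, had 1829 on array 1 and 3124 on array 2, against 3433 and 3638 in the clones, which did not pass the test (-0.56 ± 0.24, adjusted p = 0.13). Llgl2, a polarity gene, was lower by the main test (-1.67 ± 0.44, adjusted p = 0.032), with 192 on array 1 and 486 on array 2, against 966 and 979 in the clones, and the call was lost without array 1, without A7 and without A9. In 37 of the 38 junction genes array 2 lay above array 1.

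Single chemokine and interferon-response genes were among the rises. Ccl5, a chemokine that attracts T cells and monocytes, was the largest rise of all, with 5330 on array 1 and 1937 on array 2, against 123 and 123 in the clones, a 26.1-fold difference (4.70 ± 0.49, adjusted p = 4.88e-04). Cxcl10, an interferon-induced chemokine, had 3175 and 840 on day 8, against 220 and 241 in the clones (2.82 ± 0.63, adjusted p = 0.017). Ccl7 (1.60 ± 0.33) and Ccl2 (1.46 ± 0.36) were higher too, and 5 of 27 measured cytokines and chemokines were higher (18.5%, beside 8.66% of all probes), 0 lower and 22 not called. Of 32 interferon-response and antigen-presentation genes, 10 were higher (31.2%), 3 lower (9.38%, beside 10.8% of all probes) and 19 not called, with a median of 0.61. Ifit1, which binds foreign RNA ends, had 1407 and 508 on day 8, against 71.7 and 83.2 in the clones (3.45 ± 0.40, adjusted p = 7.27e-04). Ifih1, the RNA sensor MDA5, had 1031 and 230 on day 8, against 60.8 and 63.7 in the clones (2.97 ± 0.55, adjusted p = 0.0076). Rsad2, the antiviral protein viperin, had 389 and 461 on day 8, against 87.0 and 88.5 in the clones (2.27 ± 0.29), and Ifit3, of the Ifit1 family, had 1113 and 327 on day 8, against 96.5 and 94.9 in the clones (2.66 ± 0.55). Array 1 was above array 2 in 29 of the 32 interferon genes and in 23 of the 27 cytokine genes, Rsad2 being an exception. The calls of Cxcl10, Ccl2, Ccl7 and Ifit3 were lost without either clone, and those of Cxcl10 and Ccl2 also without day 8 array 1, where the lone array 2 still lay above the clones. Ifitm1, a membrane protein that is high in pluripotent cells, fell, with 997 and 597 on day 8, against 6559 and 5919 in the clones (-3.01 ± 0.26). Irf1, a transcription factor of the interferon response (-1.01 ± 0.20), and the ubiquitin ligase Trim25 (-0.69) were lower too. Both calls were lost without either clone, and that of Trim25 also without day 8 array 1.

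Interferon signals through the interferon-stimulated response element, searched here as GAAA, any 2 bases and GAAA on both strands of the promoter windows. Of all windows, 3.44% held it, and 3.99% of all genes had a window with it. It was in the windows of 4 of the 10 higher genes of the list, namely Ifih1, Ifit1, Ifit3 and Rsad2, in 0 of the 3 lower genes, and in 8 of the 12 genes with a window that were not called. The share among the not-called genes was thus no smaller. Windows with 2 copies belong to the higher genes Ifit1 and Ifit3 and to the not-called genes Ifitm3, Oas1a, Bst2 and Gbp3. Those of Ifit1 and Ifit3, neighbours on chromosome 19, are shown as examples, with the copies in capitals.
Ifit1 (chr19:34640639-34640938, plus strand): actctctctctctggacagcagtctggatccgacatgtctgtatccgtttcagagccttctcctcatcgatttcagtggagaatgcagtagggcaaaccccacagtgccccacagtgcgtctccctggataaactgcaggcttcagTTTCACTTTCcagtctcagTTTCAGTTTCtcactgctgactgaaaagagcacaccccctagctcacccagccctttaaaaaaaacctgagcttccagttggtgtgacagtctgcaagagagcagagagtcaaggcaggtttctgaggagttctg
Ifit3 (chr19:34583279-34583578, plus strand): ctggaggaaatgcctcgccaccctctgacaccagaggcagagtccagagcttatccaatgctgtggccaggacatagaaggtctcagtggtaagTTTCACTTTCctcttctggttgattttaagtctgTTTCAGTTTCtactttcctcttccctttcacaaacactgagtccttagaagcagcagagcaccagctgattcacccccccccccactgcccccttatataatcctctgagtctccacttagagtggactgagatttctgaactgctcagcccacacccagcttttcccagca

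Fibroblast genes showed how far the day 8 arrays can differ. None of the 20 measured collagen genes passed the test, although their median difference was 0.82. Col1a1, a chain of the main fibrillar collagen, had 6952 on array 1 and 1783 on array 2, against 1520 and 1093 in the clones (1.45 ± 0.68, adjusted p = 0.17). Postn, the matrix protein periostin, had 6875 and 916 on day 8, against 651 and 573 in the clones (2.04 ± 0.99, adjusted p = 0.19). Pdgfra, a growth-factor receptor of fibroblasts, had 817 and 220 on day 8, against 101 and 106 in the clones (2.03 ± 0.67, adjusted p = 0.069). On array 1 these genes were several times above the clones and on array 2 much nearer to them. The 29 mesenchymal transition factors had a median of 1.23 above the clones on array 1 and 0.33 below them on array 2 (-0.33), and array 1 exceeded array 2 in 29 of 29. For the 31 matrix glycoproteins the medians were 1.52 and -0.29, and array 1 was higher in 31 of 31. Col1a1, Postn and Pdgfra were picked after their values were seen.

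Some mesenchymal genes were high on both arrays nevertheless. Of the 29 factors, 7 were higher (24.1%, beside 8.66% of all probes) and 0 lower. Meox2, a homeobox factor of mesoderm, had 303 and 190 on day 8, against 62.4 and 68.8 in the clones (1.87 ± 0.21, adjusted p = 6.62e-04). Tbx15, a T-box factor of mesenchyme, had 1537 and 967 on day 8, against 412 and 378 in the clones (1.63 ± 0.20). Dcn, the small proteoglycan decorin, had 3216 and 1112 on day 8, against 312 and 312 in the clones (2.60 ± 0.41, adjusted p = 0.0033), and Prelp, a proteoglycan of the same family, had 840 and 489 on day 8, against 110 and 116 in the clones (2.51 ± 0.24). These were the 2 called of 31 matrix glycoproteins and proteoglycans. In the clones themselves the fibroblast genes were not at the keratinocyte level: the median log2 signal of the mesenchymal list was 10.07 and 8.12 on day 8 and 9.12 and 8.76 in A7 and A9, while it was 8.47 and 8.17 in mESCs and 7.04 and 7.13 in keratinocytes. Col1a1 gave 827 and 1141 in mESCs. Which cells of the clone and mESC cultures carry these transcripts, and their part in the results, was not tested.

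The Hox list, genes of position along the body axis that fibroblasts retain, had 10 of 37 measured genes higher (27.0%, beside 8.66% of all probes) and 1 lower (2.70%, beside 10.8%), with a median of 0.40. Hoxa9 had 347 and 333 on day 8, against 165 and 121 in the clones (1.26 ± 0.18, adjusted p = 0.0025), and Hoxd4 had 101 and 134 on day 8, against 53.2 and 50.5 in the clones (1.17 ± 0.13). Hoxd8 (1.40 ± 0.25) and Hoxd9 (1.01 ± 0.14) rose as well, the Hoxd8 call being lost without A9. Hoxc13, the factor of hair and nail, was lower (-1.03 ± 0.20), at 76.1 and 76.6 on day 8, against 144 and 169 in the clones, a call that was lost without A9. All these signals were low.

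Further large rises belonged to none of these groups. Shisa3, named for a frog protein that restrains Wnt and FGF receptors, had 2537 and 2468 on day 8, against 143 and 117 in the clones, and it had the smallest error of the large rises (4.27 ± 0.11, adjusted p = 2.13e-07). Foxd1, a forkhead factor of kidney stroma, had 1604 and 1338 on day 8, against 101 and 101 in the clones (3.86 ± 0.19). Sbspon, a secreted protein with a thrombospondin repeat, had 1072 and 869 on day 8, against 71.4 and 57.2 in the clones (3.92 ± 0.17). These 3 genes were alike on both day 8 arrays. Aldh1a1, an enzyme that makes retinoic acid, had 764 and 1263 on day 8, against 70.7 and 77.5 in the clones (3.73 ± 0.26), and Aldh3a1, an aldehyde dehydrogenase of the cornea, had 416 and 1381 on day 8, against 65.0 and 68.5 in the clones (3.51 ± 0.44). Capn6, a calpain without protease activity, had 2127 and 836 on day 8, against 95.3 and 111 in the clones (3.69 ± 0.48). Avil (advillin, an actin-binding protein), Ly6g6c (a Ly6-family surface protein) and Fetub (the protease inhibitor fetuin-B) rose by 3.62 ± 0.46, 3.61 ± 0.52 and 3.36 ± 0.29. Avil had 692 and 2229 on day 8, against 101 and 100 in the clones. Ly6g6c had 1213 and 4610, against 175 and 214, and Fetub had 1645 and 2842, against 204 and 218. The calls of Aldh3a1, Avil and Ly6g6c were lost in the fit of the 4 arrays alone. Ahsg, the fetuin-A gene beside Fetub on chromosome 16, had 348 and 1044 on day 8, against 107 and 106 in the clones (2.50 ± 0.49). Sh3rf2, a RING-finger gene, had 566 on array 1 and 2802 on array 2, against 131 and 153 in the clones (3.15 ± 0.72, adjusted p = 0.018), and its call was lost without A7 and without A9.

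Of 27 genes of the G1 list, which holds Myc and Mycn beside cyclins, kinases and inhibitors, 6 were higher (22.2%, beside 8.66% of all probes) and 4 lower (14.8%, near the 10.8% of all probes). Ccne1, cyclin E1, had 1826 and 1815 on day 8, against 4530 and 4110 in the clones (-1.24 ± 0.09, adjusted p = 9.37e-05), and Ccnd3, cyclin D3, differed by -0.97 ± 0.11. Cdk6, the D-cyclin kinase, had 2038 and 2716 on day 8, against 1030 and 955 in the clones (1.25 ± 0.21), and the inhibitor Cdkn2c differed by 1.31 ± 0.16. Of 30 TGF-beta, BMP and ID genes, 6 were higher (20.0%) and 2 lower (6.67%). Id4, an inhibitor of basic helix-loop-helix factors, had 754 and 825 on day 8, against 192 and 222 in the clones (1.93 ± 0.13, adjusted p = 5.23e-05), and Smad3, a TGF-beta signal transducer, differed by 1.09 ± 0.12. Smad7, the inhibitory SMAD, was lower (-1.33 ± 0.23), a call lost without A9. In the metabolic and housekeeping lists the shares called were near or under those of all probes: 1 of 22 glycolysis genes was higher (Pfkfb3, 0.83) and 1 lower (Pfkm, -0.66), 3 of 27 lysosome genes were higher, led by Naglu (1.25), a heparan sulphate hydrolase, and 3 of 30 ribosome biogenesis genes were lower, led by Gar1 (-1.04), a protein of snoRNA particles. The calls of Pfkm, Naglu and Gar1 were lost without either clone. The contractile list was also under the shares of all probes. It had 1 of 25 genes higher (Csrp1, 0.77), which is 4% beside 8.66%. In it 2 genes were lower (Des, -2.35, and Csrp2, -1.48), which is 8% beside 10.8%. The Csrp1 call was lost with weights by group variance and in the fit of the 4 arrays alone.

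Of 25 measured imprinted genes, which are expressed from 1 parental copy, 8 were higher (32%, beside 8.66% of all probes), Dcn among them, and 4 lower (16%, beside 10.8%). Phlda2, a maternally expressed brake on placental growth, had 378 and 453 on day 8, against 7831 and 7228 in the clones, an 18.2-fold lower signal (-4.18 ± 0.23, adjusted p = 1.54e-05). Ascl2 (-1.53 ± 0.15) and Peg10 (-1.23 ± 0.19), both needed in the placenta, were lower too, at 134 and 135 on day 8, against 440 and 342 in the clones for Ascl2 and 2208 and 2182 on day 8, against 5226 and 5072 in the clones, for Peg10. Dlk1, a paternally expressed inhibitor of adipocyte formation, had 3855 and 1765 on day 8, against 541 and 436 in the clones (2.42 ± 0.52, adjusted p = 0.014), and the call was lost without day 8 array 1 and without either clone. Grb10, a brake on insulin signalling, differed by 1.08 ± 0.16.

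The marker lists of other cell types hold 12 to 15 measured genes each, so that a few calls make a large share, and their counts stand beside 8.66% higher and 10.8% lower of all probes. Of 15 immune markers, 0 were higher and 4 lower. Lyz2, the lysozyme of myeloid cells, had 55.7 and 44.7 on day 8, against 833 and 731 in the clones (-3.97 ± 0.15), while Ptprc, the pan-leukocyte marker CD45, had 56.8 and 53.3 on day 8, against 54.9 and 55.8 in the clones. Of 12 endothelial markers, 2 were higher and 2 lower. Pecam1, an adhesion molecule that pluripotent cells also carry, had 73.8 and 72.3 on day 8, against 618 and 748 in the clones (-3.22 ± 0.11), and Tek, the angiopoietin receptor, had 830 and 1293 on day 8, against 385 and 428 in the clones (1.35 ± 0.22). Vwf was at 108 and 112 on day 8 and at 105 and 123 in the clones. Of 13 trophoblast markers, Tfap2a was higher (2.69 ± 0.32), with 606 and 794 on day 8, against 104 and 110 in the clones, and Tfap2c, Eomes and Ascl2 were lower (-1.71, -1.69 and -1.53). Tfap2a also marks keratinocytes and neural crest, and keratinocytes had 1939 and 1716. Of 14 primitive endoderm markers, 1 was higher (Lama1, 1.43) and 1 lower (Gata4, -0.93). The Lama1 call was lost without A7 and in the fit of the 4 arrays alone, that of Gata4 without A9. Of 15 neural and melanocyte markers, 2 were higher and 4 lower. Olig2 was the largest fall, at 104 and 116 on day 8, against 597 and 687 in the clones (-2.54 ± 0.12), while mESCs had 102 and 87.3. The calls of the higher genes Nes and Ngfr were lost without either clone. Among the lower genes, that of Tubb3 was lost without any 1 of the 4 arrays, and those of Pax6 and Pmel without A9. The defining markers Cdx2, Sox17 and Sox1 did not pass the test, at 0.07, 0.06 and 0.23.

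**Figure D3:**
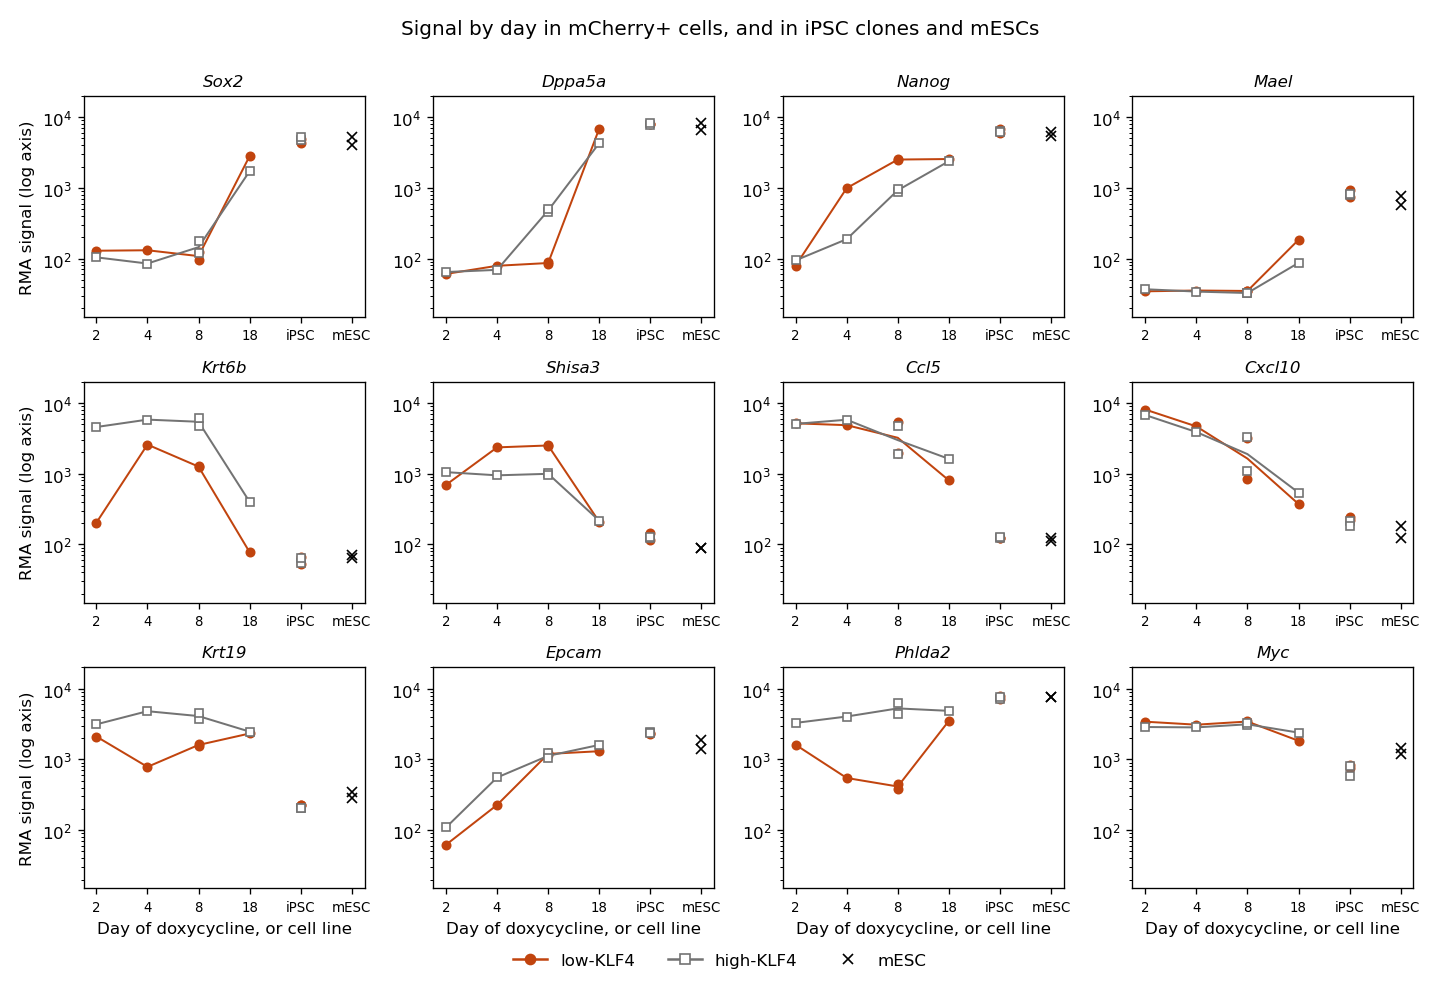
RMA signal (log axis) of 12 genes on days 2, 4, 8 and 18 of doxycycline in low-KLF4 (filled circles) and high-KLF4 (open squares) mCherry+ cells, in the iPSC clones of each cassette and in mESCs (crosses); lines join the days through the geometric mean. Krt6b and Shisa3 are high on days 4 and 8 and low on day 18 and in the clones, and in low-KLF4 cells Sox2, Dppa5a and Mael leave their day 2 level between days 8 and 18, while Dppa5a is at 460 and 498 in high-KLF4 cells on day 8.

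The single arrays of the other days place the day 8 values in order, without a replicate check. The day 18 cells were again sorted as mCherry+, while the paper takes loss of mCherry with gain of Nanog-GFP as full reprogramming. Day 18 is therefore not shown to be a step between day 8 and the clones. Sox2 in low-KLF4 cells was at 129, 131, 123 and 95.4, and 2813 on days 2, 4, 8 (both arrays) and 18, and Dppa5a at 60.6, 79.0, 83.6 and 89.4, and 6885. Both were thus about as low on day 8 as on day 2, and high on day 18. Nanog was up sooner, at 79.5, 992, 2565 and 2464, and 2557 over the same days. Mael was at 34.4, 35.3, 34.3 and 35.3, and 184, and Zfp980 at 34.1, 27.5, 30.4 and 26.0, and 322, so that both were still well under the clones on day 18. The germline gene Ddx4 had 56.6 on day 18, against 392 and 396 in the clones. The rises differed in their course. Krt6b was at 202, 2576, 1244 and 1272, and 77.4 on days 2, 4, 8 and 18, and Shisa3 at 693, 2351, 2537 and 2468, and 208. Cxcl10 was highest on day 2, at 8064, 4657, 3175 and 840, and 372, and Rsad2 likewise, at 1319, 841, 389 and 461, and 134. Ly6g6c, Dsp and Capn6 were still at 1993, 1213 and 1073 on day 18, and Krt19 stayed up as well, at 2108, 784, 1530 and 1674, and 2326. Phlda2 was at 1610, 546, 378 and 453, and 3510, with its lowest signals on day 8.

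The same comparison with the high-KLF4 cassette asks whether the distance from day 8 to the clones differs between the cassettes. It shares no array with the low-KLF4 comparison. Across 21789 probes the differences of the cassettes correlated with r = 0.81, which is across genes and carries no p, since genes are not independent and the day 8 arrays of both cassettes differ from each other in the same way (r = 0.74 for array 2 minus array 1). The test of the difference between the cassettes called 150 probes more negative with low-KLF4 (0.688%) and 36 more positive (0.165%). Of the 150, 133 were more than 2-fold above the clones with high-KLF4, and 91 did not pass the test with low-KLF4.

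The more negative side was led by epidermal genes that low-KLF4 cells left near the level of the clones. Alox12b, a lipoxygenase of the epidermal barrier, had 128 and 160 on low-KLF4 day 8, against 145 and 147 in A7 and A9, while high-KLF4 day 8 cells had 2528 and 7552, against 139 and 144 in A10 and H10 (difference between cassettes -4.98, adjusted p = 0.0089). Klk10, a kallikrein protease, had 202 and 212, against 267 and 237, on day 8 and in the clones with low-KLF4, and 5387 and 7101, against 270 and 229, in the same groups with high-KLF4 (-4.92, adjusted p = 3.01e-04). Klk14, Slurp1, Nccrp1, Krt16, Krt90, Srgn, Cwh43 and Krt14 made up the 10 largest, between -4.55 and -4.05. Krt14, the basal keratin partner of Krt5, did rise with low-KLF4, to 315 and 251, against 104 and 115 in the clones, far less than with high-KLF4, at 3780 and 5459, against 101 and 113. The difference also held for Krt6b (-2.08, adjusted p = 0.018), Krt17 (-2.33, adjusted p = 0.015) and Krt19 (-1.51, adjusted p = 0.0059), so the low-KLF4 rises of these keratins were the smaller ones.

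Some genes that are high in the clones were on the same side. Of the 36 pluripotency genes, 4 were more negative with low-KLF4 (beside 0.688% of all probes), Dppa5a, Lin28a and Dppa2 among them. In the same list 1 gene was more positive (beside 0.165%). Phlda2 and Lncenc1 are not in that list. Phlda2 had 378 and 453 with low-KLF4, against 7831 and 7228 in A7 and A9, and 4443 and 6243 with high-KLF4, against 7114 and 7713 in A10 and H10 (-3.69, adjusted p = 0.0025). Lncenc1 (-2.79, adjusted p = 3.01e-04), Dppa5a (-2.47, adjusted p = 0.0016), Lin28a (-2.06, adjusted p = 0.013) and Dppa2 (-1.34, adjusted p = 0.012) were more negative with low-KLF4 too. High-KLF4 day 8 cells had 460 and 498 for Dppa5a, above the 83.6 and 89.4 of low-KLF4 cells. Nanog was on the other side, 1.42 more positive with low-KLF4 (adjusted p = 0.0048), at 888 and 963 in high-KLF4 day 8 cells. Sox2 (-0.31), Zfp980 (-0.20), Pla2g1b (0.05), Tdrd12 (0.16) and Mael (0.05) did not pass the test of the difference, with standard errors of 0.20 to 0.29.

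The more positive side was smaller. Zic5, a zinc-finger factor of neural plate and pluripotent cells, had 557 and 891 on low-KLF4 day 8, against 1553 and 1854 in A7 and A9, and 103 and 98.4 on high-KLF4 day 8, against 1681 and 1842 in A10 and H10 (2.86, adjusted p = 0.0068). Pllp, plasmolipin, a membrane protein of myelin and epithelia, had 841 and 1160, against 121 and 116, with low-KLF4, and 151 and 213, against 108 and 125, with high-KLF4 (2.43, adjusted p = 0.012). Bcl11a, a transcriptional repressor of fetal globin and of neural cells, had 916 and 867, against 299 and 293, with low-KLF4, and 200 and 137, against 305 and 238, with high-KLF4 (2.29, adjusted p = 0.0069). These genes were above their high-KLF4 level on both low-KLF4 arrays. Cadm1 and Mcam, adhesion molecules of the immunoglobulin family, were 2.66 and 2.15 more positive, and Shisa3 (1.28, adjusted p = 0.0089) and Foxd1 (1.53, adjusted p = 0.047), 2 of the 15 largest rises, were also larger rises with low-KLF4.

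**Figure D4:**
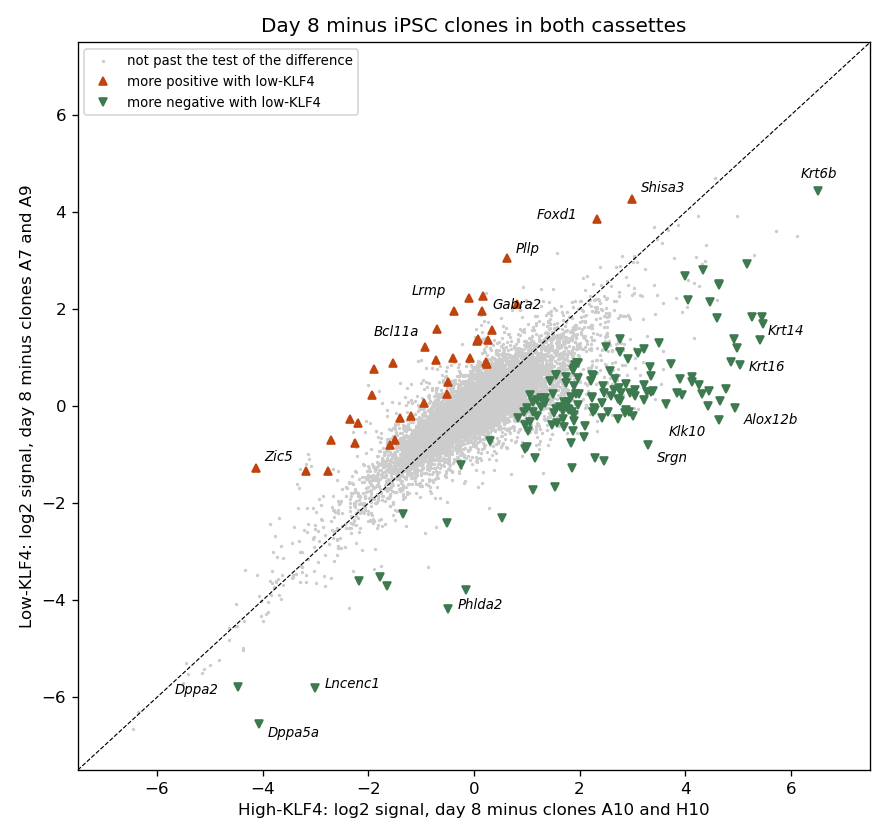
Log2 signal difference of day 8 minus clones for 21789 probes, low-KLF4 (vertical axis) against high-KLF4 (horizontal axis), with the 36 probes more positive and the 150 more negative with low-KLF4 past the test of the difference marked; the dashed line is equality. Of the 150, 133 lie above 1 on the horizontal axis, and 91 did not pass the test with low-KLF4. Alox12b and Klk10 belong to both of these sets, and Phlda2, Lncenc1 and Dppa5a lie below the line.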

How the data were processed

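The deposited value table was made by the authors with RMA (version not given in the sources used here), which corrects background, quantile-normalizes and summarises probes per transcript cluster. Its values are signal intensities on a linear scale, as checked on the deposited values, with array medians between 139.4 and 161.6. Log2 was taken of each.

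Of 28853 probes, 21789 with 1 gene symbol were tested, 1621 with several and 5443 without were not. Symbols came from the platform annotation and positions from RefSeq (GRCm38.p6). Both contrasts came from 1 linear model of all 18 arrays with a mean for each of the 12 groups (limma 3.58.1 under R 4.3.3). The prior added 2.30 degrees of freedom to the 6 residual ones, p-values were adjusted by the Benjamini-Hochberg method across the 21789 probes, and the threshold was 0.05. The fit was tested on simulated data with the same spread on every array, which cannot show how it handles the unequal spread seen here. A gene with several probes is given by the brightest.

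Named genes were the 15 largest rises and falls past the test without overlap, up to 4 changed genes per direction and list, the 10 largest cassette differences each way, Epcam, Cdh1 and the cassette factors. Any other gene was picked with its values in view. The comparison and the 26 lists (644 of 703 entries measured) were chosen with earlier results of these data known. Counts called are read against the share of all probes called, with no set test. Python 3.11.15 with pandas 2.3.3, NumPy 2.4.6 and matplotlib 3.10.9 was used for tables, sequence searches and figures.

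Alternatives tried were a filter on the dimmest 30% of probes, a further quantile normalization, limma-trend, array weights, the 4 arrays alone, all probes, a 2-fold limit, the methods' t-test, a replicate block and leaving out each array. With an array left out, the remaining array of that group takes its spread from the pooled estimate. Precision is limited by the number of arrays (2 or 1 per group) and by the unequal spread of the groups, and no background level is given with the values.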

Additional observations from a re-analysis of the deposited data

Results flagged for a closer look

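These genes were singled out because the day 8 minus clones difference itself differed between the cassettes by the limma test (adjusted p under 0.05 over 21789 probes). The values are log2 differences, low-KLF4 minus high-KLF4, each from 8 arrays. The 10 most negative were Alox12b (-4.98), Klk10 (-4.92), Klk14 (-4.55), Nccrp1 (-4.43), Slurp1 (-4.43), Krt16 (-4.19), Krt90 (-4.15), Srgn (-4.11), Cwh43 (-4.06) and Krt14 (-4.05). The 10 most positive were Zic5 (2.86), Cadm1 (2.66), Pllp (2.43), Zdbf2 (2.42), Pcx (2.35), Lrmp (2.32), Bcl11a (2.29), Nnat (2.17), Mcam (2.15) and Gabra2 (2.11). In 7 of the 20 genes the call held under every alternative run for it, and in 13 it was lost in at least 1 fit that left out a single array. All 20 kept their direction in those fits.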

How the results depend on the processing

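For the low-KLF4 comparison (1886 probes higher, 2343 lower), leaving out the dimmest probes, a further quantile normalization, limma-trend, array weights and testing all probes kept the counts within 1.5 times of these. The counts were 556 higher and 1008 lower with the 4 arrays alone, and 549 and 861 with a 2-fold limit. The methods' t-test gave 2188 higher and 2205 lower at its threshold, and 1 (Spop) and 6 after Benjamini-Hochberg adjustment, of which Car4 alone is among the largest falls. Leaving out single arrays gave 583 to 2035 higher and 1036 to 2476 lower, with the lowest counts without A9 (583 and 1036) and without A7 (927 and 1323).

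Both day 8 groups number their arrays 1 and 2, and array 2 minus array 1 correlated between the cassettes (r = 0.738), which with 1 such pair of groups does not show that the numbers pair the samples. The clones carry no such number. With a replicate block for the day 8 arrays, chosen for this comparison after the data were seen, 4376 were higher and 4017 lower. Weights by group variance, also added later, gave 838 and 1178.

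For the difference between the cassettes (150 more negative, 36 more positive), the replicate block gave 673 and 236. Leaving out single arrays gave 38 to 828 and 5 to 322.

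Of 134 named genes past the test, 77 kept the call under all alternatives run for named genes, and 0 changed direction. The fit of the 4 arrays lost 45, leaving out A9 lost 41 and A7 28, and leaving out day 8 array 1 lost 14 and array 2 lost 8. Weights by group variance lost 23 and array weights lost 2, and both of these weighted fits keep every array. The cause of the losses was not tested, other than that the fit of the 4 arrays and the leave-out fits hold fewer arrays.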
